A study of Mus musculus with 4 samples.

Results

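The Ly6 surface antigen family was examined in thymic invariant natural killer T (iNKT) cells of wild-type (WT) and Mettl3-deficient mice. The 7 members, Ly6c1, Ly6c2, Ly6a, Ly6i, Ly6e, Ly6d and Ly6k, are named Ly6 genes of the cluster on mouse chromosome 15, chosen from the deposited count table by name with the genotype comparison of these libraries already known. They are 7 of the 53715 gene IDs in the table, and all 7 had at least 1 count. Of the 7, 6 passed the filter on low counts and so belong to the 14185 genes tested, while Ly6i did not pass. RNA sequencing was done on 4 libraries, 2 per genotype, from thymocytes sorted as viable (7AAD-) cells that bound the CD1d tetramer and carried TCRβ. The first group was WT on C57BL/6, and the second carried loxP-flanked Mettl3 alleles with CD4-cre (labelled Mettl3fl/flCD4-cre, here Mettl3 knockout); mice of both groups were 6 to 8 weeks old and no treatment is given. Cd4 is expressed from the CD4+CD8+ stage of thymocyte development, so Cre acts in conventional T cells as well as in iNKT cells. METTL3 is the catalytic subunit of the enzyme that writes N6-methyladenosine on mRNA. The labels do not say whether libraries of a genotype came from separate animals, so every p-value refers to the spread between libraries and this spread may be technical only.

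Ly6 proteins are small, cysteine-rich polypeptides of the three-finger fold that are held on the outer membrane by a glycosylphosphatidylinositol (GPI) anchor. In mice, Ly6C and Ly6A (Sca-1) rise on T cells that become activated or memory-like, and interferons induce several members. Ly6E (TSA-1, Sca-2) was described as a thymocyte antigen, and Ly6C marks a subset of monocytes outside the T lineage.

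The members most alike in sequence are Ly6c1 (ENSMUSG00000079018.10, GENCODE M21 on GRCm38, chromosome 15, 75044018 to 75048830, minus strand) and Ly6c2 (ENSMUSG00000022584.14, chromosome 15, 75108158 to 75111970, minus strand). Their coding sequences were each 396 bases long and identical at 387 of 396 positions (97.7%). The stretch with the most differences is their first 120 coding bases, shown because it holds 6 of the 9 bases by which reads from the coding part can be assigned to either gene; capitals mark the bases that differ.
Ly6c1: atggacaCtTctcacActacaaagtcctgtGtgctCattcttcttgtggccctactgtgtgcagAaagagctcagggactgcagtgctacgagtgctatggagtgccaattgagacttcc
Ly6c2: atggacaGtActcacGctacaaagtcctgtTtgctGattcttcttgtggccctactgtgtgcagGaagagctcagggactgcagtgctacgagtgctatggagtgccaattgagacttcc
Counted from 1 at the A of the start codon, with the Ly6c1 base first, the 6 differences are C8G, T10A, A16G, G31T, C36G and A65G, and the other 3 are G254A, T327C and G376A. The Ly6a coding sequence was 82.0% identical to Ly6c1, 81.7% to Ly6c2 and 86.4% to Ly6i. Ly6e, Ly6d and Ly6k stood apart, between 46.5% and 52.6% identical to each other and to the remaining members.

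Words of 50 bases show how far counts of these genes can be kept apart. In the Ly6c2 transcript (822 bases), 33.0% of such words also occurred in a transcript of another gene, nearly always Ly6c1, and in the Ly6c1 transcript (844 bases) 36.7% did, with Ly6c2 or Ly6a. The share was 91 of 906 words for Ly6a and 55 of 1107 for Ly6i. No word of the Ly6e, Ly6d or Ly6k transcripts was shared. How reads that match more than 1 gene were counted is not given in the sources used here, so the split of counts between Ly6c1, Ly6c2, Ly6a and Ly6i is uncertain.

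The stretches before the start sites of both Ly6c genes, taken from RefSeq (GRCm38.p6), are shown because these near-identical genes had different levels and different changes. Promoter entries of 300 bases were aligned whole, for the start sites whose entries were most alike, and the facing part that lies before both start sites was kept. It matched at 165 of 232 aligned columns (71.1%), of which 16 are gaps, and the start sites do not face each other: the last base shown lies 1 base before the Ly6c1 start and 22 bases before the Ly6c2 start. The Ly6c1 stretch is chr15:75048838-75049056 and the Ly6c2 stretch chr15:75111993-75112221, both on the minus strand and written 5′ to 3′; capitals mark bases that differ from, or face a gap in, the other gene.
Ly6c1: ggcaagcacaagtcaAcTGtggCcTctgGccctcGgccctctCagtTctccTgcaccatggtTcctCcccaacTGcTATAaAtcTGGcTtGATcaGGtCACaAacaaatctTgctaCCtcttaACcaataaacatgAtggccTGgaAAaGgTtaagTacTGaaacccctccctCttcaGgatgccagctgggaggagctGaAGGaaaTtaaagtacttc
Ly6c2: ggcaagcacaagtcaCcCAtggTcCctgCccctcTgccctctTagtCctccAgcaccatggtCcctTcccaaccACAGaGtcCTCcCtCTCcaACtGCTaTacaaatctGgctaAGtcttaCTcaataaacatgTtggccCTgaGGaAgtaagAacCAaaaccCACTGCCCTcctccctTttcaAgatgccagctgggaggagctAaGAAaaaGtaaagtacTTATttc
Motifs were searched on both strands of the full promoter entries (250 bases before to 50 after a start): the interferon-gamma activated site TTCNNNGAA, the interferon-stimulated response element (GAAA, any 2 bases, GAAA) and the T-box motif AGGTGTGA. None of the 4 entries of Ly6c1 and Ly6c2 held any of these letters. Among all 32851 promoter entries of the table, 8.3%, 3.44% and 1.28% held them. The other members had no promoter entry in the table used.

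Across libraries the counts totalled 24374587 to 28316016. Mettl3 itself was at 92.2 and 123.6 CPM (counts scaled to library size, with TMM factors) in WT and at 78.1 and 91.4 CPM in the knockout (log2 fold change -0.35, SE 0.19, edgeR adjusted p = 0.357). The counts are per gene and do not show its exons apart, so the deletion of Mettl3 was not tested here. The 9 iNKT markers summed to 3603.8 and 3705.0 CPM in WT and to 4268.6 and 4079.5 CPM in the knockout. All were counted in every library except the Trav11d segment, which had at most 1 count per library. Only Cd5 was called, higher at 880 and 830.1 CPM against 489 and 582.6 CPM in WT (edgeR adjusted p = 0.0275). Both knockout libraries lay above both WT libraries in Cd5, Trbc1, Trbc2 and Zbtb16, and below them in Cd3d, Cd3g and Traj18. Traj18 had 98 and 84 counts in WT and 42 and 57 in the knockout. Markers of monocytes, macrophages and dendritic cells summed to 428.6 and 544.5 CPM in WT and to 1783.2 and 1895.7 CPM in the knockout (5 of 10 genes called higher). In WT this sum was mostly Ccr2 (345.4 and 367.8 CPM), which T cells also express. Lyz2 there was at 29.6 and 47.5 CPM, Cd74 at 24.8 and 60 CPM and Itgam, Fcgr1 and Clec9a at 0. The genes called higher were Lyz2, Csf1r, H2-Aa, Cd74 and Cd209a. H2-Aa and Cd74 reached 552.3 and 548.9 and 515.2 and 548.2 CPM in the knockout. Ccr2 overlapped between the genotypes, and Cst3 was lower in the knockout without being called. Itgam, Fcgr1 and Clec9a had 7 and 4, 0 and 3, and 1 and 46 counts in the knockout. Markers of plasmacytoid dendritic cells summed to 387.2 and 394.4 CPM in WT and to 473.6 and 534.6 CPM in the knockout. Of these, 2 of 6 were called higher (Tcf4 and Ccr9), and Siglech had 2 and 32 counts in WT and 109 and 247 in the knockout. Ccr9 was the largest part of the sum, at 192.6 and 197.8 CPM in WT and 318.1 and 353.7 CPM in the knockout. Irf8 and Bst2 went the other way without being called. Irf8 was at 56.8 and 56.2 CPM in WT and 26 and 30.9 CPM in the knockout, and Bst2 at 127.5 and 132.4 against 82.3 and 105.2 CPM. Markers of CD4+CD8+ thymocytes summed to 319.2 and 426.5 CPM in WT and to 629.9 and 588.6 CPM in the knockout (0 of 7 called). Their part in the differences below was not tested. Bulk libraries cannot tell apart fewer cells of a type and less RNA per cell.

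Ly6c2, Ly6a and Ly6e were lower in the Mettl3 knockout, and no member was called higher. The call is edgeR's quasi-likelihood test at a Benjamini-Hochberg adjusted p under 0.05 over all tested genes, and it gave 3 lower and 0 higher members; of all tested genes, 1.51% were called lower and 1.09% higher. These values describe genes that were listed with this comparison known and are no independent support for it. In the same 3 members both knockout libraries lay below both WT libraries, as in 24.9% of all tested genes, and in Ly6k both lay above, as in 25.4% of tested genes.

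**Figure D1:**
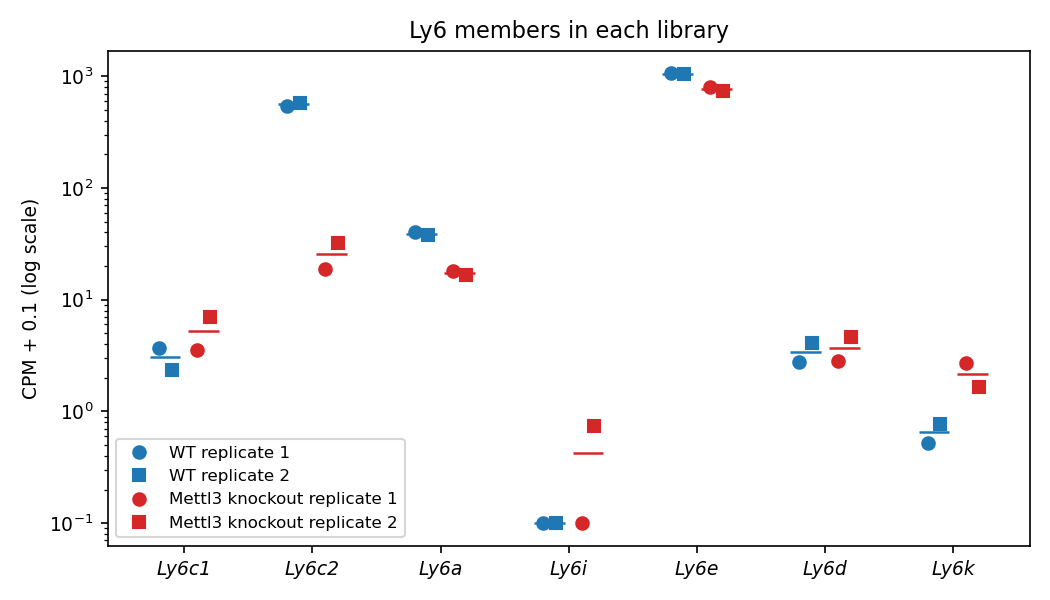
Level of each member in each library, as CPM + 0.1 on a log axis; points are libraries (blue WT, red Mettl3 knockout; circles replicate 1, squares replicate 2) and bars are means of 2 libraries. The red points of Ly6c2 (18.9 and 32.1 CPM) lie far below the blue ones (546.6 and 573.2 CPM), those of Ly6a and Ly6e lie closer below, and Ly6c1 and Ly6d overlap.

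Ly6c2, which encodes a Ly6C antigen of memory-like T cells and monocytes, showed the largest change of the members. It had 15368 and 14399 counts in the WT libraries and 487 and 799 in the knockout libraries, or 546.6 and 573.2 against 18.9 and 32.1 CPM. The WT libraries were close to each other, the knockout libraries differed from each other, and no knockout library came near WT. The means were 559.9 ± 18.8 and 25.5 ± 9.28 CPM (SD, n = 2), a 22.0-fold lower level in the knockout (log2 fold change -4.46, SE 0.20, 95% interval -4.93 to -3.99; edgeR adjusted p = 0.000799). No tested gene had a smaller p. By size alone, 119 of the 14185 tested genes had a lower log2 fold change. The call held whichever library was left out, with values from -4.89 to -4.13. Monocytes, plasmacytoid dendritic cells and granulocytes also carry Ly6C. The summed levels of the marker lists of all 3 cell types were higher in the knockout. Single markers went both ways in the plasmacytoid dendritic cell list and in the list of monocytes, macrophages and dendritic cells. Irf8, Bst2 and Cst3 had both knockout libraries below both WT libraries. The part of these cells in the level of Ly6c2 was not tested in either genotype. The 5 granulocyte markers summed to 0.178 and 0.318 CPM in WT and to 0.894 and 1.04 CPM in the knockout, with Ly6g and Csf3r at 0 in all libraries and S100a8, S100a9 and Mpo at up to 12 counts.

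Ly6c1, the near-identical neighbour of Ly6c2, did not follow it. It had 102 and 57 counts in WT and 88 and 172 in the knockout, or 3.63 and 2.27 against 3.42 and 6.90 CPM. The groups overlapped, and knockout replicate 2 held the highest value. Its log2 fold change of 0.78 had an SE of 0.60 and a 95% interval of -0.61 to 2.18 (adjusted p = 0.523 by edgeR), and it was 0.19 without knockout replicate 2 and 1.21 without knockout replicate 1. Per 100 counts of Ly6c2 there were 0.664 and 0.396 counts of Ly6c1 in the WT libraries and 18.1 and 21.5 in the knockout libraries. With the counts of both genes summed, the log2 fold change was -4.21 (edgeR adjusted p = 0.00183). This sum does not depend on how counted reads were split between the 2 genes. It does not restore reads that were left uncounted, nor settle those shared with Ly6a.

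Ly6a (ENSMUSG00000075602.10, chromosome 15, 74994877 to 74998031, minus strand) encodes Sca-1, an antigen of stem cells and activated lymphocytes. It stood at 39.9 and 37.7 CPM in WT and at 17.8 and 16.6 CPM in the knockout. The libraries of each genotype were close together and the genotypes did not overlap. The means were 38.8 ± 1.51 and 17.2 ± 0.842 CPM (SD, n = 2), a 2.26-fold lower level (log2 fold change -1.18, SE 0.23, 95% interval -1.71 to -0.64; edgeR adjusted p = 0.0473). The size of this change moved little when any library was left out (-1.23 to -1.13), but the call was lost each time (edgeR adjusted p = 0.139 without WT replicate 1, 0.148 without WT replicate 2, 0.208 without knockout replicate 1, 0.243 without knockout replicate 2). It was also lost with total-count scaling (0.0518), with limma voom (0.053) and with no filter on low counts (0.063).

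Ly6i (ENSMUSG00000022586.11, chromosome 15, 74979534 to 74983430, minus strand), the closest relative of Ly6a by coding sequence, had 0 counts in both WT libraries and in knockout replicate 1 and 16 counts in knockout replicate 2 (0.642 CPM). A count of 0 allows up to 3 counts, which were 0.107 to 0.119 CPM in the libraries concerned. The gene was not tested, and no difference between genotypes can be read from 1 library.

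Ly6e (ENSMUSG00000022587.14, chromosome 15, 74955051 to 74959905, plus strand) encodes TSA-1. It stood at 1063.5 and 1045.4 CPM in WT and at 793.4 and 737.3 CPM in the knockout. The genotypes did not overlap, and the change was small beside that of Ly6c2 and Ly6a. The means were 1054.4 ± 12.8 and 765.3 ± 39.6 CPM (SD, n = 2), a 1.38-fold lower level (log2 fold change -0.46, SE 0.08, 95% interval -0.66 to -0.27; edgeR adjusted p = 0.0386). Leaving out a library left the value between -0.52 and -0.41 but ended the call (edgeR adjusted p = 0.0788 without WT replicate 1, 0.0967 without WT replicate 2, 0.171 without knockout replicate 1, 0.255 without knockout replicate 2).

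Ly6d and Ly6k were expressed at low levels. Ly6d (ENSMUSG00000034634.7, chromosome 15, 74762056 to 74763620, minus strand), an antigen of early B-lineage and epithelial cells, had 2.67 and 3.98 CPM in WT and 2.72 and 4.49 CPM in the knockout. The groups overlapped (log2 fold change 0.13, SE 0.58, 95% interval -1.22 to 1.48; edgeR adjusted p = 0.936), and the sign turned without WT replicate 1 (-0.16) or knockout replicate 2 (-0.28). The B cell markers, of which Pax5 had no count, summed to 7.54 and 15.8 CPM in WT and to 31.8 and 24.4 CPM in the knockout, with 0 of 6 called. Ly6k (ENSMUSG00000044678.11, chromosome 15, 74796874 to 74799986, minus strand), best known from testis and germ cells, had 12 and 17 counts in WT and 67 and 39 in the knockout, or 0.427 and 0.677 against 2.6 and 1.56 CPM. Both knockout libraries were above WT, but with so few counts the log2 fold change of 1.93 carried an SE of 0.82 (95% interval 0.04 to 3.82) and was not called (edgeR adjusted p = 0.235). A predicted gene on the opposite strand overlaps Ly6k in the annotation, and its reads cannot be told apart from those of Ly6k in libraries without strand.

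**Figure D2:**
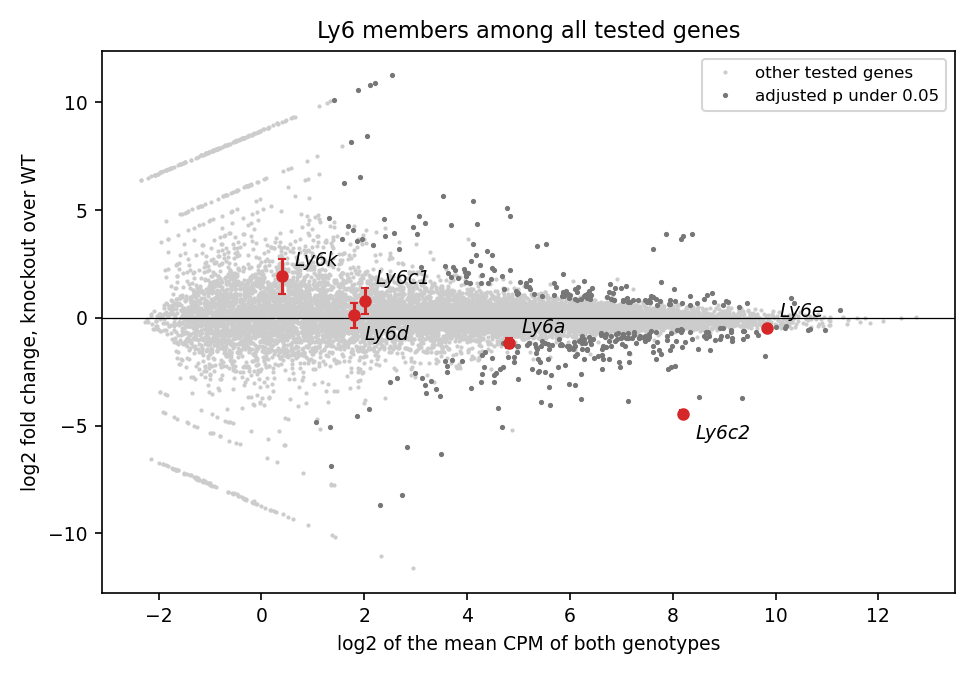
log2 fold change (knockout over WT) against the log2 mean CPM of both genotypes for all tested genes; red points are the 6 tested members with their SE, dark grey points genes at an adjusted p under 0.05. Ly6c2 (-4.46) lies far below most other genes of its level, and Ly6k, Ly6c1 and Ly6d lie at low levels where the spread of all genes is wide. The slanted lines at the edges are genes with few or no counts in 1 genotype, whose fitted values are no measure of size.

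Summed over the 7 members, the family gave 1656.7 and 1663.2 CPM in the WT libraries and 838.8 and 799.5 CPM in the knockout libraries. A long gene takes a larger part of such a sum, so shares are given per kilobase of annotated exons. On that scale Ly6e made up 54.1% and 52.7% of the family in WT and 87.3% and 83.7% in the knockout. Ly6c2 made up 38.4% and 39.9% in WT and 2.88% and 5.02% in the knockout. The share of Ly6a on this scale hardly differed, at 6.36% and 5.97% in WT and 6.14% and 5.90% in the knockout. All these shares depend on the length used. Per kilobase of the longest principal coding transcript, Ly6c2 (665.0 and 697.3 CPM per kb) stood above Ly6e (466.2 and 458.3) in WT. Shares on that scale are not given, and there the share of Ly6a need not be alike in both genotypes.

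**Figure D3:**
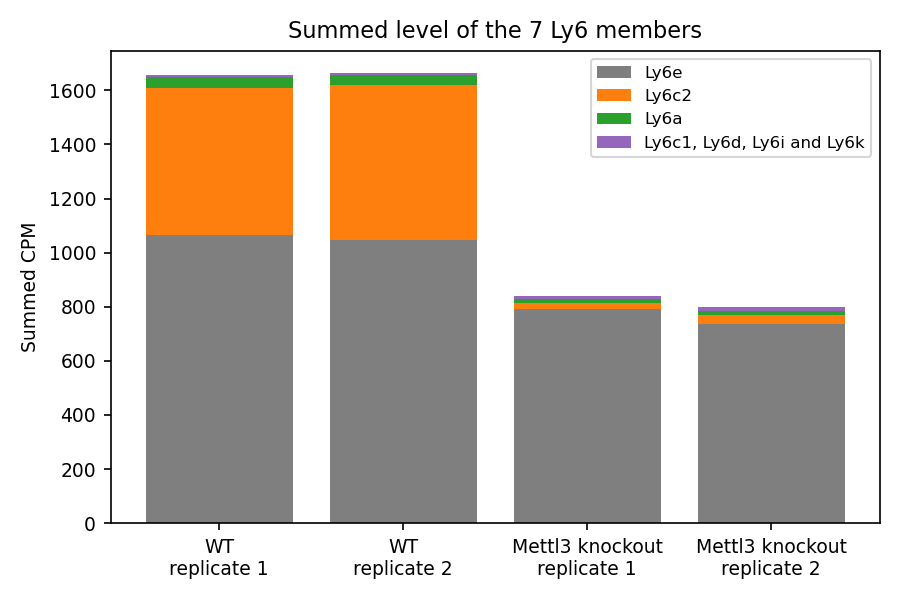
Summed CPM of the 7 members in each library, stacked by gene, not corrected for gene length. The WT bars reach 1656.7 and 1663.2 CPM and the knockout bars 838.8 and 799.5 CPM, and the Ly6c2 segment shrinks from 546.6 and 573.2 CPM to 18.9 and 32.1 CPM.

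CPM also grows with transcript length, so the members are ordered per kilobase. Per kilobase of all annotated exons, the order of mean levels in WT was Ly6e (278.7 CPM per kb), Ly6c2 (204.3), Ly6a (32.2), Ly6d (4.47), Ly6c1 (1.76) and Ly6k (0.666). Per kilobase of the longest principal coding transcript, Ly6c2 (681.1 CPM per kb) stood above Ly6e (462.3), so which of them was more abundant in WT depended on the length used. In the knockout Ly6e was first on both scales, with 202.3 CPM per kb of exons and 335.5 CPM per kb of transcript. Ly6c2 there was at 9.30 CPM per kb of exons, below Ly6a (14.2), and at 31.0 CPM per kb of transcript, above Ly6a (18). Ly6d and Ly6c1 exchanged places between the scales in the knockout, and per kilobase of transcript their WT libraries overlapped (3.59 and 5.35 against 4.30 and 2.69 CPM per kb).

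The cluster spans 885 kb and holds 16 other family genes, of which 11 had no count in any library. These silent genes include Ly6g, Ly6f, Ly6l, Psca, Gml and Gpihbp1, the capillary anchor of lipoprotein lipase. Lynx1, a modulator of nicotinic receptors, had 31 and 146 counts in WT and 152 and 55 in the knockout (log2 fold change 0.29, SE 0.81, edgeR adjusted p = 0.891). The gene listed as 2010109I03Rik, named Ly6m by RefSeq, had 45 and 10 counts in WT and 97 and 13 in the knockout (log2 fold change 1.07, SE 1.05, edgeR adjusted p = 0.632). Both overlapped between the genotypes, and leaving out a library turned the sign of either. The untested Ly6h had 4 and 0 counts in WT and 6 and 10 in the knockout, Slurp1 had 32 counts in WT replicate 1 alone, and I830127L07Rik, named Ly6a2 by RefSeq, had 20 counts in WT replicate 2 alone.

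Of 7 genes of other kinds in or beside the cluster, 0 were called by edgeR or limma voom, and 3 had an unadjusted p under 0.05 (Ptp4a3, Jrk and Zfp41). On the Psca side, Jrk was at 9.25 and 11.7 CPM in WT and 2.53 and 3.37 CPM in the knockout (log2 fold change -1.82, SE 0.46, edgeR adjusted p = 0.0915), Arc had a log2 fold change of 0.51 and Ptp4a3 of 0.40. On the Gpihbp1 side, the zinc finger gene Zfp41 was at 27.2 and 24.6 CPM in WT and 12.6 and 11.2 CPM in the knockout (log2 fold change -1.13, SE 0.27, edgeR adjusted p = 0.0788), and Top1mt and Zc3h3 had log2 fold changes of -0.08 and 0.77. Them6, which lies inside the cluster, had a value of -0.90 with an SE of 0.92. Jrk and Zfp41, on either side, had both knockout libraries below both WT libraries, and both were called by DESeq2 (adjusted p = 0.0193 and 0.0129), Zfp41 also by edgeR at 5 CPM in 2 libraries (0.0477). Whether the lower levels of Ly6e, Ly6a and Ly6c2 extend along the region was not tested.

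**Figure D4:**
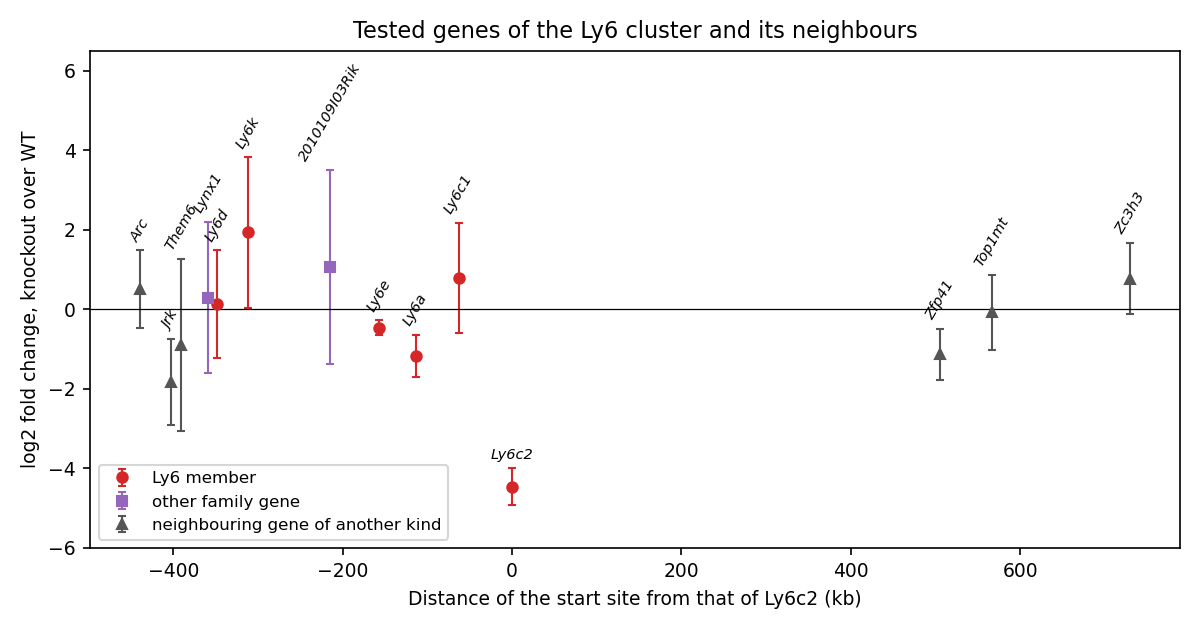
log2 fold change (knockout over WT) with its 95% interval for the tested genes of the cluster and its neighbours, against the distance of each start site from that of Ly6c2 in kb; circles are members, squares other family genes and triangles genes of other kinds (Ptp4a3 lies outside the plotted range). Ly6e, Ly6a and Ly6c2 lie below 0 with their whole intervals, as do Jrk and Zfp41, which were not called, while the interval of Ly6c1, between Ly6a and Ly6c2, spans 0.

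Outside the cluster, 18 further genes of the Ly6/uPAR superfamily were listed, and 3 had enough counts to be tested. Plaur, the urokinase receptor of myeloid cells and activated T cells, rose from 11.9 and 7.92 CPM in WT to 44.8 and 49.3 CPM in the knockout (4.70-fold, log2 fold change 2.23, SE 0.27, edgeR adjusted p = 0.0101). It rose in the libraries with more myeloid transcripts, and that part was not tested; the call was lost without WT replicate 2 or either knockout replicate (adjusted p up to 0.0852). Ly6g5b, of the family's group on chromosome 17, was at 30.8 and 37.3 CPM in WT and 17.3 and 16.8 CPM in the knockout (log2 fold change -0.99, SE 0.25, edgeR adjusted p = 0.0868, DESeq2 adjusted p = 0.0146). Lypd6b had 68 and 1 counts in WT and 100 and 158 in the knockout (log2 fold change 1.97, SE 0.85, edgeR adjusted p = 0.254). The complement regulators Cd59a and Cd59b had at most 4 counts in any library.

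The machinery that builds and attaches GPI anchors showed no called gene. Of 30 listed genes 29 were tested, 0 rose and 0 fell by edgeR, limma voom and DESeq2 alike, and the median log2 fold change was -0.12 against 0.0163 over all tested genes. Of these, 4 had an unadjusted p under 0.05. Pigv, a mannosyltransferase gene, averaged 48.1 ± 10.6 CPM over the WT libraries and 27.0 ± 9.09 CPM over the knockout libraries (SD, n = 2; log2 fold change -0.83, edgeR adjusted p = 0.168). Pigo, of the ethanolamine phosphate step, had a log2 fold change of 0.54 (adjusted p = 0.181 by edgeR), and Gpaa1 and Pigx had -0.34 and -0.45 (both 0.242).

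Among 16 other GPI-anchored surface genes of lymphocytes and related cells, 14 were tested, 1 fell (7.14%) and 0 rose, with a median of 0.01. Over all tested genes, 1.51% were called lower and 1.09% higher. Earlier results of these data were known when this list was chosen, so its share is a description. The gene that fell was Cd160, a receptor of natural killer and cytotoxic T cells, at 137.5 and 152.2 CPM in WT and 33.4 and 51.2 CPM in the knockout (3.43-fold lower, log2 fold change -1.78, SE 0.21, edgeR adjusted p = 0.00888). Without WT replicate 2 or knockout replicate 1 it was not called (adjusted p up to 0.0714). Art2b, an ADP-ribosyltransferase gene of T cells, was at 48.3 and 124.3 CPM in WT and 219.1 and 209.8 CPM in the knockout (log2 fold change 1.33, edgeR adjusted p = 0.0996), and it was called only without WT replicate 2 (value 0.78 to 2.15 over the libraries left out). Cd52 had a log2 fold change of -0.49 (edgeR adjusted p = 0.114, DESeq2 adjusted p = 0.0271) and Art2a-ps of 2.35 (0.126).

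Since interferons induce Ly6a, Ly6c and Ly6e, 40 interferon-stimulated genes were set beside them. All 40 were tested, 5 fell (12.5%) and 0 rose, beside 1.51% called lower and 1.09% called higher over all tested genes. At 5 CPM in 2 libraries, 6 genes of the list and 727 of 9833 tested genes were called. This list was also chosen with earlier results of these data known, so its share is a description. The median log2 fold change was -0.21 against 0.0163 over all tested genes. Ifit3 was at 150.7 and 137.2 CPM in WT and 58.1 and 49.6 CPM in the knockout (2.67-fold lower, log2 fold change -1.42, SE 0.16, edgeR adjusted p = 0.00755). Ddx58, the viral RNA sensor RIG-I, fell 1.87-fold (edgeR adjusted p = 0.0145) and the guanylate-binding protein gene Gbp3 2.67-fold (0.0366). Ifit3b fell by 1.59 on the log2 scale and Ifi203 1.91-fold (edgeR adjusted p = 0.0403 and 0.043). The count was 4 and 1 without WT replicates 1 and 2, and 0 without either knockout replicate.

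Receptors and factors known to act on these genes, or on the memory-like T cells that carry them, were a list of 30 tested genes. Of these, 6 fell and 2 rose (26.7% called), beside 1.51% called lower and 1.09% called higher over all tested genes. At 5 CPM in 2 libraries, 10 genes of the list and 727 of 9833 tested genes were called. The list was chosen with earlier results of these data known, so its share is a description and no support. Ifngr1, the ligand-binding chain of the interferon-gamma receptor, fell from 1068.7 and 1683.4 CPM in WT to 403.8 and 395.6 CPM in the knockout (log2 fold change -1.78, SE 0.20, edgeR adjusted p = 0.00746). Its partner chain Ifngr2 rose from 17.8 and 22.4 CPM to 58.1 and 49.5 CPM (log2 fold change 1.43, SE 0.23, edgeR adjusted p = 0.0275). The genes of the 2 chains thus moved in opposite directions.

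Cd44, the memory marker that is often read with Ly6C, fell 2.20-fold (edgeR adjusted p = 0.00746). Stat4 fell 4.56-fold and the interleukin-12 receptor gene Il12rb2, whose product signals through STAT4, 3.76-fold (edgeR adjusted p = 0.0168 and 0.0202). Il27ra fell 1.79-fold (edgeR adjusted p = 0.0174) and Tbx21, which encodes T-bet, 1.97-fold (0.0202). The interleukin-2 receptor gene Il2ra rose 3.84-fold, from 6.69 and 14.8 CPM to 42.5 and 38.5 CPM (edgeR adjusted p = 0.0365). The list's median log2 fold change was -0.19, also with Eomes, which had no WT count, at its bound of 3 counts. Its count of 8 fell to 2 without WT replicate 2 and to 0 without either knockout replicate.

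**Figure D5:**
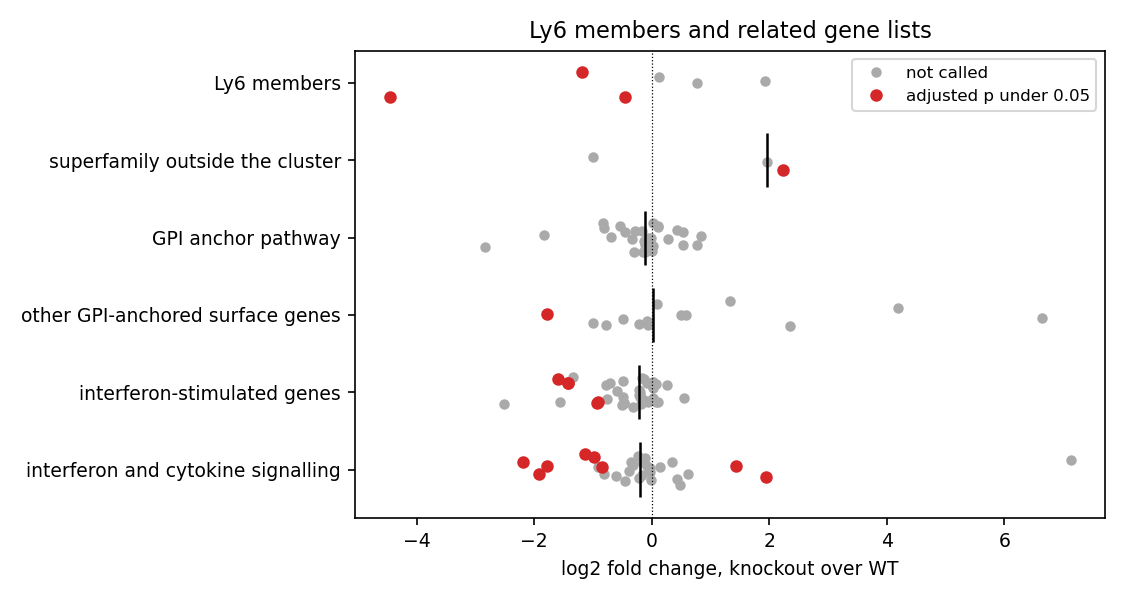
log2 fold change (knockout over WT) of each tested gene among the Ly6 members and the 5 related lists; red points are genes at an adjusted p under 0.05 and black lines are list medians (none drawn for the members). Ly6c2 at -4.46 lies below every tested gene of the 5 lists, and the 2 points beyond 6 are genes with no count in WT (Sema7a and Eomes), whose fitted values are no measure of size.

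The genes whose levels over the 4 libraries were most like those of Ly6c2 were sought among 8228 genes of at least 10 CPM on average, by the Euclidean distance between log2(CPM + 0.5) values centred on each gene's mean. They were Klri2 (distance 0.75), Klre1 (0.83), Klrc2 (0.97) and Fgl2 (1.01). The first 3 encode lectin-like receptors of natural killer cells and the fourth a fibrinogen-like protein. Klri2 was at 68.3 and 116.5 CPM in WT and 4.24 and 7.02 CPM in the knockout, and Fgl2 at 912.4 and 1524.8 against 85.0 and 101.4 CPM. In both, WT replicate 2 stood above WT replicate 1 by more than it did in Ly6c2. For Ly6e, the member with the highest mean CPM without regard to length, the most similar genes were Ap2s1 (0.02), Sept6 (0.03), Tmem176a (0.03) and Scarb2 (0.04), with log2 fold changes of -0.45, -0.47, -0.49 and -0.45; edgeR called none of these over all genes kept by its filter, and DESeq2 called Ap2s1 and Sept6 (adjusted p = 0.0418 and 0.000885). With 4 libraries this likeness rests mostly on the difference between genotypes.

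METTL3 methylates adenosine in sequences such as GGAC, so the letters GGAC were counted in the principal transcripts. Ly6k held 7.59 per kb, Ly6c2 6.08, Ly6c1 5.92, Ly6e 4.82, Ly6d 4.03, Ly6i 3.46 and Ly6a 3.14. The median over 11701 tested coding genes was 4.17 per kb. Ly6c1 and Ly6c2 each held 5 such sites, Ly6e held 11 and Ly6a held 3. The 3 members called lower in the knockout thus held 6.08, 4.82 and 3.14 per kb, and the others 3.46 to 7.59. Methylation itself was not measured, and a link between these letters and the changes was not tested.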

How the data were processed

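RNA sequencing covered 4 libraries from sorted iNKT cells of the thymus, 2 WT and 2 Mettl3 knockout, assigned by their titles. The authors deposited raw read counts per Ensembl gene, with a column for each library and no pooling. Per the submitters' processing notes STAR 2.6.0a and HTSeq 0.6.1 are named with build mm10, beside FastQC 0.11.5 and DESeq2 1.18.1. Not given in the sources used here are the annotation, the strand setting and how multiply matching reads were counted. Smart-seq2, the library method per the labels' protocols, marks no strand. Of 53715 IDs, 53620 matched GENCODE M21 (GRCm38) without and 51464 with the version; coordinates are given only for the latter.

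In R 4.3.3, genes kept by filterByExpr were scaled by TMM and tested across all genes with edgeR 4.0.16 (glmQLFit, glmQLFTest, robust), two-sided, without covariate, 2 residual degrees of freedom, with Benjamini-Hochberg adjustment and a threshold of 0.05. Each SE is the fold change (log2) over the square root of F. Without molecular identifiers, reads do not stand for independent molecules, so the 95% intervals and the floor of 3 counts reflect counting and library error alone. Alternatives were DESeq2 size factors, total-count scaling, other filters, DESeq2 1.42.0, limma 3.58.1 voom, a replicate block, each library left out, and summed paralogs.

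The members and lists were chosen with earlier results of these data known. Named were all members, cluster genes with counts, tested neighbours, up to 4 genes of the smallest p per list, called genes of lists with 8 or fewer calls, and the 4 genes most like Ly6c2 and most like the member of highest mean CPM; Sema7a, Eomes, Cd59a, Cd59b and the silent cluster genes were added after their values were seen. The longest transcript with the best APPRIS principal tag stood for a gene. Of the 7 members, 2 matched the RefSeq promoter table; protein sequences were not used here.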

Additional observations from a re-analysis of the deposited data

How the results depend on the processing

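Ly6c2 kept its direction and its call in every alternative fit, and its value was -4.13 to -4.89 with 1 library left out. Ly6a did not pass with total-count scaling (-1.12), no filter (-1.18), limma voom (-1.18) or the replicate block (-1.18), nor with any library left out (-1.23 to -1.13); Ly6e did not pass with the block (-0.46) or with any library left out (-0.52 to -0.41). Ly6d turned sign with a library left out (-0.28 to 0.45), as did genes that were never called: Them6 (0.77 without WT replicate 1), Top1mt (0.36 without knockout replicate 2), Lynx1 (-0.52 and -0.60 without WT replicate 1 and knockout replicate 1) and 2010109I03Rik (-0.98 without knockout replicate 1), with ranges of -1.60 to 0.77, -0.75 to 0.36, -0.60 to 1.88 and -0.98 to 2.42. Summing Ly6c1 with Ly6c2 gave -4.21 and adding Ly6a and Ly6i -3.65, against 0.78 for Ly6c1 alone, because Ly6c2 holds most of those counts. Ly6 members called lower were 1 with the block and 1 with any library left out.

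Genes called lower and higher over all genes were 214 and 154. They were 392 and 335 at 5 CPM in 2 libraries, 676 and 665 with DESeq2, 168 and 101 with limma voom, 155 and 93 without a filter, 26 and 7 with the block, and 26 to 132 and 13 to 40 with a library left out. Called genes of the superfamily outside the cluster, of other GPI-anchored genes, of interferon-stimulated genes and of the signalling list were 2, 2, 8 and 13 with DESeq2 and 0, 0, 0 and 1 with the block. They ranged from 0 to 1, 0 to 1, 0 to 4 and 0 to 8 with a library left out, and interferon-stimulated calls were 3 without a filter and 2 with limma voom.

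The replicate numbers are shared by both genotypes, but the deviations of same-numbered libraries did not go together (r = -0.024 across 14185 genes), so the block, with 1 residual degree of freedom, is not read as pairing. Leaving out a library leaves 1 library in a genotype, which is assumed to vary like the others. Levels under 5 CPM, as for Ly6k and Ly6d, rest on at most 112 counts per library and limit what can be seen.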
